A study of Mus musculus with 18 samples.

Results

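Monocytes from spleens of FcgRIIb knockout mice were set against those of wild-type (WT) mice, both given intravenous immunoglobulin (IVIg) and both labelled as day 3. The comparison holds 6 of the 18 libraries of the series, chosen by their genotype and treatment labels, with 3 libraries from C57BL/6 WT mice and 3 from FcgRIIb -/- mice. All 6 share the IVIg treatment, and the other groups of the series, used here only beside this comparison, are WT and FcgRIIb -/- mice with phosphate-buffered saline (PBS) and Dectin-1 -/- mice with PBS or IVIg. The design text gives independent mice for each group and a cell sort from splenocytes. The sources used here give no dose, age or sort markers, nor which part of the gene the FcgRIIb -/- allele lacks or the background of that strain.

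IVIg is pooled human immunoglobulin G used in the clinic to dampen inflammation. Immunoglobulin G binds Fc gamma receptors on monocytes: the activating receptors signal through the shared Fc receptor gamma chain and the kinase Syk, while FcgRIIb, encoded by Fcgr2b, carries an inhibitory motif that recruits the phosphatase SHIP-1. FcgRIIb is also carried by B cells and plasma cells, where it restrains activation and antibody production, and mice without it are known to make more antibody. An antibody light chain is assembled by joining a variable (V) segment to a short joining (J) segment, which is then spliced to a constant (C) segment, so the J segment found in a transcript records which joint a B cell made.

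Both genes that passed the test in this comparison were antibody genes, Igkj2, the second joining segment of the kappa light chain, and Ighg2b, the constant region of immunoglobulin G2b. The kappa joining segments are printed here because they are short and share most bases, while their log2 fold changes of knockout over WT varied. These were 4.81 ± 0.47 (SE) for Igkj2, 2.75 ± 1.01 for Igkj1, 2.67 ± 0.70 for Igkj5 and 0.71 ± 0.82 for Igkj4. Igkj3 did not pass the low-count filter, and no test compared the segments. Sequences are from GENCODE M21 transcripts (GRCm38, chromosome 6), are read 5′ to 3′, and have in capitals the bases that differ from Igkj2 when the segments are lined up at their 3′ ends.

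Igkj1: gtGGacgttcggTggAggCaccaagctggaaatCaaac
Igkj2: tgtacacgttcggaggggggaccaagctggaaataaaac
Igkj3: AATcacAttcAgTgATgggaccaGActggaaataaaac
Igkj4: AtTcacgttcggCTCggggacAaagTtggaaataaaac
Igkj5: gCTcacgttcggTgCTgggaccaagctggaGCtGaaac

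Igkj1 differs from Igkj2 at 6 of 38 aligned bases, Igkj4 at 7, Igkj5 at 8 and Igkj3 at 10. Igkv1-110 and Igkv1-117, the most counted kappa variable segments in the FcgRIIb knockout libraries with IVIg, have nearly the same sequence. Bases 64 to 348 of their coding parts are shown, from the first to the last difference, because reads from the matching stretches cannot be told apart. The bases at which the pair differ are in capitals.

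Igkv1-110: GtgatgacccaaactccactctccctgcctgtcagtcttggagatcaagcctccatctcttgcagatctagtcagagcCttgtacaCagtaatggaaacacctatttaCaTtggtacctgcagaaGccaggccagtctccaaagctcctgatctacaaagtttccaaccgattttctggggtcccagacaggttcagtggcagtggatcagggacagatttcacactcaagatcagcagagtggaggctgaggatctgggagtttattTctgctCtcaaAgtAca
Igkv1-117: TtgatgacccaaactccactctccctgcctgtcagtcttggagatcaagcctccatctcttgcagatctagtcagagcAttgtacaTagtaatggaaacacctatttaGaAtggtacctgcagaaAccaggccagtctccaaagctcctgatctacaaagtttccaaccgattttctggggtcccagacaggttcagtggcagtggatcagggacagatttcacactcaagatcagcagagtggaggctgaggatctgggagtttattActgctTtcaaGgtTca

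The coding parts match at 97.2% of 359 bases, with 10 differences, so how the counts divide between them is uncertain. The annotated transcripts of the constant regions Ighg2b and Ighg2c were 86.5% identical over 1117 aligned columns.

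Total counts were 40561626, 48958909 and 47385446 in the WT libraries and 22895716, 32394278 and 37541295 in the FcgRIIb knockout libraries, both with IVIg. In these 6 libraries 3 counts correspond to 0.0615 to 0.148 CPM, the unit of counts scaled by library size used below. FcgRIIb knockout PBS replicate 2 held 719494 counts, so that 3 counts there correspond to 4.24 CPM. Lyz2, the lysozyme of myeloid cells, was the most counted gene in every library. The 2 most alike libraries of all 153 pairs differ in treatment, WT PBS replicate 3 and WT IVIg replicate 1 (Spearman 0.988). WT IVIg replicate 3 stood apart from the other WT libraries in its antibody transcripts, and its title code is shared with FcgRIIb knockout PBS replicate 3. Over 5288 abundant genes, the deviation of a library from the mean of all libraries was correlated with gene length, with Spearman values from -0.348 to 0.581 in WT IVIg and from -0.652 to 0.261 in FcgRIIb knockout IVIg libraries.

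Of 17040 genes tested with edgeR's quasi-likelihood test, 2 passed at a Benjamini-Hochberg adjusted p under 0.05 (0.0117% of the genes tested), both higher in the FcgRIIb knockout, and 0 passed as lower. At an unadjusted p under 0.05 there were 655 genes higher (3.84%) and 272 lower (1.60%). In 981 genes (5.76%) all 3 knockout libraries lay above all 3 WT libraries, and in 775 (4.55%) all lay below. The median log2 fold change of all genes tested was -0.02. Of 42 lists of pathway, subset and cell type genes, 41 held 0 called genes, and the plasma cell list held Ighg2b.

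**Figure D1:**
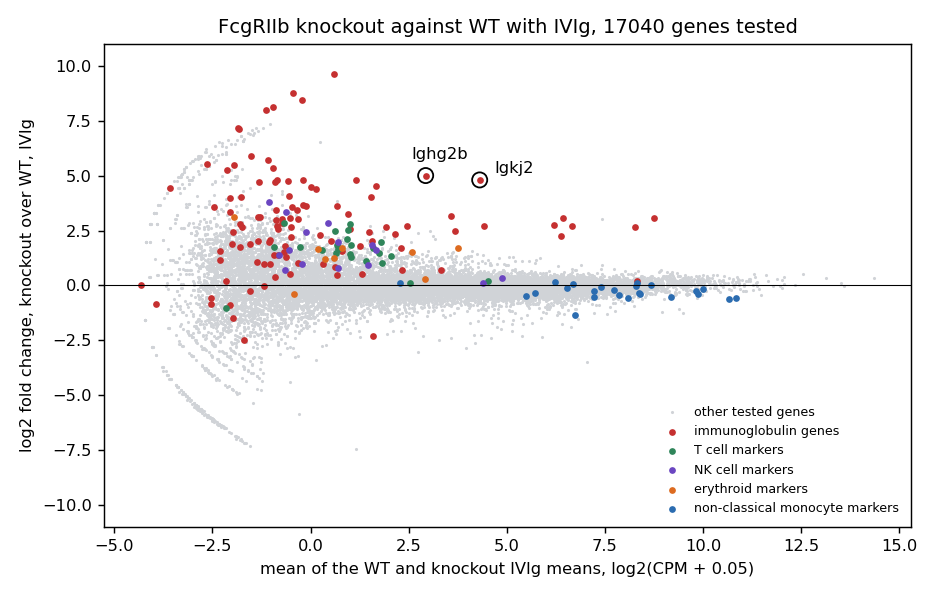
Log2 fold change of FcgRIIb knockout over WT with IVIg for each of the 17040 genes tested, against the mean of both groups on a log2(CPM + 0.05) scale, with immunoglobulin genes and 4 marker lists in colour. Igkj2 and Ighg2b, the 2 genes that passed, are named, at log2 fold changes of 4.81 and 5.005, and the non-classical monocyte markers lie near or below 0 at the abundant end.

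Igkj2 (ENSMUSG00000076605, chromosome 6, 70699900 to 70699942, GRCm39) rose in the FcgRIIb knockout. It stood at 0.890, 1.88 and 1.27 CPM in the WT libraries and at 41.4, 40.6 and 32.7 CPM in the knockout libraries. The groups were far apart, and the knockout libraries were close to each other although their levels of the kappa constant region Igkc ranged from 217 to 1079 CPM. Its means were 1.35 ± 0.50 and 38.2 ± 4.78 CPM (SD, n = 3), a 28.4-fold difference, and its log2 fold change was 4.81 ± 0.47 (SE, edgeR adjusted p = 4.14e-05). As an antigen receptor segment it falls outside the rule for named genes and is named after its values were seen. The exon that was counted is 43 bases long, while the segment printed above from GENCODE M21 has 39. A read pair that touches the exon also counts for the variable and constant segments of the same transcript.

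Ighg2b (ENSMUSG00000076613, chromosome 12, 113266585 to 113271553) is the constant region of a class-switched antibody. It stood at 0, 1.31 and 0 CPM in the WT libraries and at 6.01, 33.5 and 4.75 CPM in the knockout libraries. The groups did not overlap, and knockout replicate 2 held most of the signal. Its log2 fold change was 5.005 ± 0.83 (SE, edgeR adjusted p = 0.0421). That call held in 6 of the 16 alternative settings that kept the gene, while that of Igkj2 held in all 16 that kept it, with log2 fold changes of 4.16 to 5.13 for Igkj2. Without WT replicate 1, WT replicate 3 or knockout replicate 2, Ighg2b had an edgeR adjusted p of 0.182, 0.0943 and 0.508.

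Most antibody genes with enough counts to be tested were placed higher in the FcgRIIb knockout. Of 393 immunoglobulin genes 110 had enough counts to be tested, and 100 of these had a log2 fold change above 0, with a median of 2.67. In 28 of them all knockout libraries lay above all WT libraries, and in 0 all lay below, against 5.76% and 4.55% of all genes tested. Segments of the same transcript can share read pairs, so they are not separate measurements. Immunoglobulin genes took 0.0377%, 0.0346% and 0.112% of the counts in the WT libraries and 0.127%, 0.538% and 0.1201% in the knockout libraries. In this percentage each knockout library was above each WT library, with WT replicate 3 just below the lowest of them. In CPM the groups overlapped, with sums of 358, 347 and 1179 in WT and 1429, 5110 and 1169 in knockout libraries. Since these genes passed a filter on low counts that a high group alone can satisfy, the counts describe the genes measured and not the whole family.

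Among the switched heavy chain constant regions, 5 of 6 were tested and all 5 were positive, with a median log2 fold change of 3.17. Ighg2c, the G2c constant region, stood at 0, 0.0819 and 7.06 CPM in WT and at 14.7, 42.1 and 7.13 CPM in knockout libraries (log2 fold change 3.17 ± 0.75, edgeR adjusted p = 0.367). Its groups were separated by the narrow gap between WT replicate 3 and knockout replicate 3. Ighg3, the G3 constant region, had 0 counts in all WT libraries and stood at 3.80, 1.64 and 3.40 CPM in the knockout libraries, which is at least 129-fold higher with 3 counts over the WT group as the floor (edgeR adjusted p = 0.286). Igha, the constant region of immunoglobulin A, stood at 4.43, 12.02 and 258 CPM in WT and at 256, 1799 and 274 CPM in the knockout, so the groups overlapped at WT replicate 3. The unswitched heavy chain Ighm stood at 296, 243 and 351 CPM in WT and at 406, 357 and 265 CPM in the knockout. The Ighm groups overlapped, with a log2 fold change of 0.21 ± 0.23 (SE).

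Igkc, the kappa constant region, stood at 16.2, 30.2 and 206 CPM in WT and at 310.0, 1079 and 217 CPM in knockout libraries (log2 fold change 2.67 ± 0.74, edgeR adjusted p = 0.766). Iglc2, a lambda constant region, stood at 0.750, 1.27 and 2.26 CPM in WT and at 9.46, 6.09 and 6.46 CPM in the knockout (log2 fold change 2.32 ± 0.44, edgeR adjusted p = 0.129). Neither passed the test, and in both the groups did not overlap. Iglc3 did not overlap either, while Iglc1 did, at 1.59, 3.20 and 1.997 CPM in WT and 5.82, 13.97 and 2.52 CPM in knockout libraries. Of the kappa variable segments 46 of 160 were tested, 42 were positive and the median log2 fold change was 2.75. Of the heavy chain variable segments 38 of 183 were tested, 32 were positive and the median was 2.48.

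**Figure D2:**
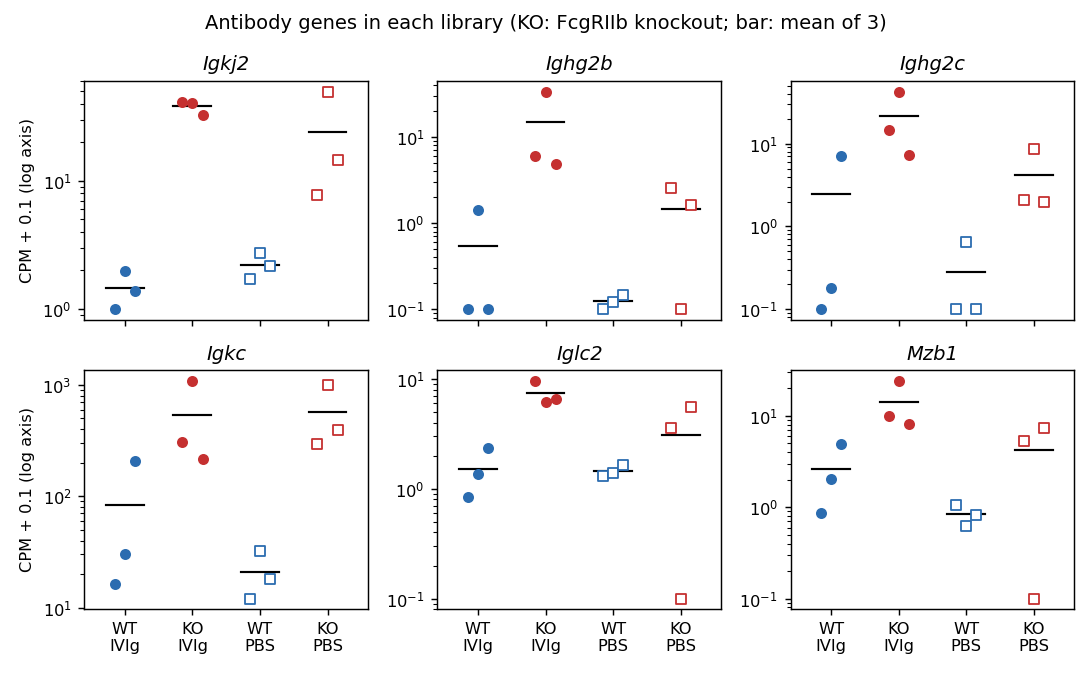
Level of 6 antibody and plasma cell genes in each library, as CPM + 0.1 on a log axis, by genotype and treatment, with 1 point a library and a bar at the mean of 3. With IVIg, Igkj2 is at 1.88 CPM or less in WT and at 32.7 CPM or more in the knockout, while the highest WT library for Igkc, replicate 3 at 206 CPM, is close to the lowest knockout library at 217 CPM.

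The libraries differed in which kappa segments their transcripts used. Counts over the kappa joining segments were 210, 453 and 3292 in WT and 1593, 13759 and 2847 in knockout libraries. Igkj2 took 18.1%, 20.3% and 1.73% of them in WT and 52.7%, 10.1% and 44.3% in knockout libraries, so the groups overlapped in this share although not in Igkj2 CPM. Igkj1 was the most counted segment in knockout replicate 2, at 84.9%, and in WT replicate 3, at 69.5%. Shares of WT replicates 1 and 2 rest on 210 and 453 counts, and all shares carry counting error besides the spread between libraries.

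**Figure D3:**
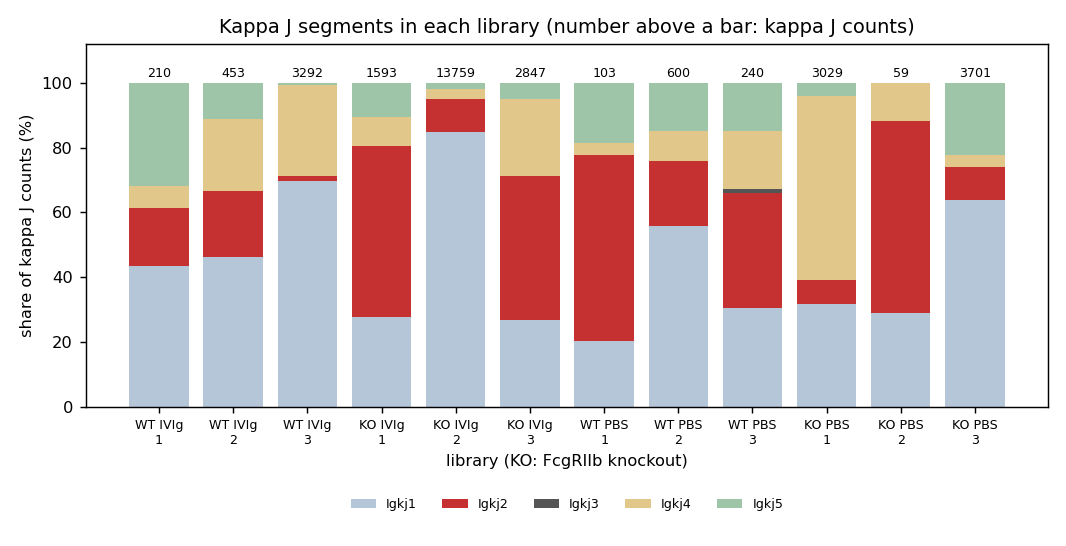
Share in percent of the counts over the kappa joining segments taken by each segment, in each IVIg and PBS library of WT and FcgRIIb knockout mice, with the counts behind a bar above it. Igkj2 holds 52.7% and 44.3% in knockout IVIg replicates 1 and 3 and 10.1% in replicate 2.

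A single variable segment held much of the kappa counts in the FcgRIIb knockout libraries. The most counted was Igkv1-110 in replicate 1, with 71.4% of the counts over kappa variable segments, and Igkv1-117 in replicates 2 and 3, with 57.8% and 42.5%. In WT replicates 1 and 2 the most counted segment held 14.9% and 17.8%. WT replicate 3 again stood with the knockout libraries, with 46.4% in Igkv1-110. Igkv1-110 stood at 1.78, 0 and 84.8 CPM in WT and at 157, 223 and 36.1 CPM in knockout libraries, so its groups overlapped.

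Plasma cells are the antibody-secreting descendants of B cells. Of 14 markers of them, all tested, 1 rose (Ighg2b), 13 were positive and 7 were placed higher without overlap. The shares over all genes tested were 0.0117% passing and 5.76% placed higher without overlap. The median log2 fold change of the list was 2.40, and 1.12 with immunoglobulin, haemoglobin and mitochondrial genes removed. Mzb1, a chaperone of antibody assembly in the endoplasmic reticulum, stood at 0.773, 1.93 and 4.84 CPM in WT and at 9.81, 23.9 and 8.17 CPM in knockout libraries (log2 fold change 2.48 ± 0.49, edgeR adjusted p = 0.161). Jchain, which joins antibody polymers, stood at 3.80, 20.3 and 89.4 CPM in WT and at 172, 616 and 128 CPM in knockout libraries (log2 fold change 3.01 ± 0.88, edgeR adjusted p = 0.777). The groups of both genes did not overlap. Ighg1, Ighg2b, Ighg2c and Ighg3, antibody genes already counted above, were also among the 7 without overlap. Not every defining marker was placed higher in this way. The secretory factor Xbp1 had a log2 fold change of 0.03 and the repressor Prdm1 of 0.10. Sdc1, the surface proteoglycan of plasma cells, ran the other way, at 3.61, 13.03 and 10.01 CPM in WT and 6.75, 7.85 and 2.65 CPM in knockout libraries, with overlap (log2 fold change -0.66 ± 0.47, SE). The summed level of the list was 464, 533 and 1038 CPM in WT and 1048, 3056 and 1006 CPM in knockout libraries, which overlap at WT replicate 3, and 5, 2 and 3 of the 14 genes had 0 counts in the WT libraries against 0 in each knockout library. In bulk RNA more cells of a type and more RNA per cell cannot be told apart.

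WT IVIg replicate 3 decided several of these tests. Its title code is shared with an FcgRIIb knockout PBS library, and whether its genotype label is right was not tested, since Fcgr2b was counted in every library. Without it 6 genes passed in place of 2, all higher: Igkv1-110, Igkj2, Igkc, Ighg2c, Ighv1-81 and Mzb1. Igkc then had a log2 fold change of 4.51 and Mzb1 of 3.33, with an edgeR adjusted p of 0.0202 for each. Ighg2b no longer passed, with an edgeR adjusted p of 0.0943.

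The antibody genes were also high in the FcgRIIb knockout without IVIg. In PBS, Igkj2 stood at 1.61, 2.62 and 2.05 CPM in WT and at 7.67, 49.4 and 14.5 CPM in knockout libraries, of which the second is the shallow library and shares its title code with the first. The log2 fold change in PBS was 2.60 (edgeR adjusted p = 0.129), and the difference of 2.21 between IVIg and PBS did not pass the interaction test (edgeR adjusted p = 1.0). The plasma cell list had a median log2 fold change of 2.54 in PBS, and immunoglobulin genes took 0.0303% to 0.0335% of the counts in WT and 0.143% to 0.290% in knockout PBS libraries. Igkv1-110 was the most counted kappa variable segment in each knockout PBS library, with 51.4% to 75.9% of those counts. In PBS 0 of the 17040 genes passed with edgeR (1644 at an unadjusted p under 0.05, 9.65%), against 175 with DESeq2. For the interaction 0 passed with edgeR (487 at an unadjusted p under 0.05, 2.86%) and 1 with DESeq2, so no gene can be called particular to IVIg by the main test.

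Set against the Dectin-1 knockout with IVIg, which shares the FcgRIIb knockout libraries with the main comparison, 20 genes passed (0.117%), 16 of them higher in the FcgRIIb knockout. Igkj2 averaged 1.79 CPM in the Dectin-1 knockout, with a log2 fold change of 4.29 (edgeR adjusted p = 3.85e-05). Ighg2b had a log2 fold change of 4.39 (edgeR adjusted p = 0.0247). The other antibody and plasma cell genes among the 20 were Igkc, Igkv1-110, Ighg2c, Jchain and Mzb1. The 20 also held Clec7a, which encodes Dectin-1, at means of 711 CPM in the FcgRIIb and 0.886 CPM in the Dectin-1 knockout. Klri1, Klri2, Klrk1, Klrb1b, Klra17, Hebp1, Emp1, Eps8, Gm44511 and mmu-mir-7649 passed as well. They lie, as Clec7a does, between 128757248 and 137631874 on chromosome 6. None of these genes passed between the FcgRIIb knockout and WT with IVIg. Immunoglobulin genes took 0.0347% to 0.0459% of the counts in the Dectin-1 knockout IVIg libraries.

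Markers of T cells, natural killer cells and red cells stood higher in the knockout libraries as well, and none passed the test. Of 23 T cell markers 22 were positive, 17 had groups that did not overlap, and the median log2 fold change was 1.66. Over all genes tested 5.76% were placed higher without overlap. Cd8b1, a chain of the co-receptor of cytotoxic T cells, stood at 0.539, 0.697 and 0.266 CPM in WT and at 6.31, 2.64 and 0.778 CPM in knockout libraries (log2 fold change 2.51 ± 0.68, edgeR adjusted p = 0.685). Cd6, a T cell surface receptor, had a log2 fold change of 2.46 ± 0.69 (SE), and Cd3e, a chain of the T cell receptor complex, was at 0.0703, 0 and 0.355 CPM in WT and at 0.887, 1.35 and 0.804 CPM in knockout libraries. The levels were low: the list summed to 41.5, 71.4 and 26.3 CPM in WT and to 97.8, 113 and 65.5 CPM in knockout libraries, which overlap at WT replicate 2. In PBS the median of the T cell list was 0.42.

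Of 16 natural killer cell markers 15 were tested and all 15 were positive, with a median log2 fold change of 1.61. In 7 the groups did not overlap, against 5.76% of all genes tested placed higher in this way. Prf1, which encodes the pore-forming perforin, stood at 0.211, 0.225 and 0.511 CPM in WT and at 2.07, 3.34 and 1.45 CPM in knockout libraries (log2 fold change 2.85 ± 0.72, edgeR adjusted p = 0.652). Gzmb, the protease granzyme B, had a log2 fold change of 3.33 ± 0.98 (SE). The list summed to 39.13, 88.0 and 38.1 CPM in WT and to 88.0, 94.6 and 62.9 CPM in knockout libraries. WT replicate 2 lay within the knockout range.

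Red cell transcripts were also placed higher in the knockout libraries, and none passed the test. Hbb-bs, a beta globin, stood at 2.06, 10.1 and 6.33 CPM in WT and at 26.3, 25.05 and 10.4 CPM in knockout libraries (log2 fold change 1.71 ± 0.46, edgeR adjusted p = 0.652). Of 16 erythroid genes 9 were tested and 8 were positive, with a median of 1.53, and 1 had groups that did not overlap. B cell markers had 18 of 23 positive, 8 placed higher without overlap and a median of 0.52. The share placed higher without overlap was 5.76% over all genes tested. For the Dectin-1 knockout over WT with IVIg, the medians were 1.11 for B cell and 0.84 for erythroid markers. For the FcgRIIb knockout over WT, other non-monocyte list medians were 0.54 for plasmacytoid dendritic cells, 0.51 for neutrophils and 0.23 for conventional dendritic cells. They were 0.01 for red pulp macrophages, 0 for eosinophils, basophils and mast cells and -0.61 for platelets. The platelet median changed sign in 5 alternative settings. Most T cell, natural killer cell and erythroid markers tested stood higher in the knockout group, as most antibody genes tested did. WT replicate 3, the WT library with the most antibody transcripts, had the lowest T cell and natural killer cell sums of the WT libraries. Whether these differences have a common source was not tested. The part of these other cells in the differences of other genes was not tested.

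**Figure D4:**
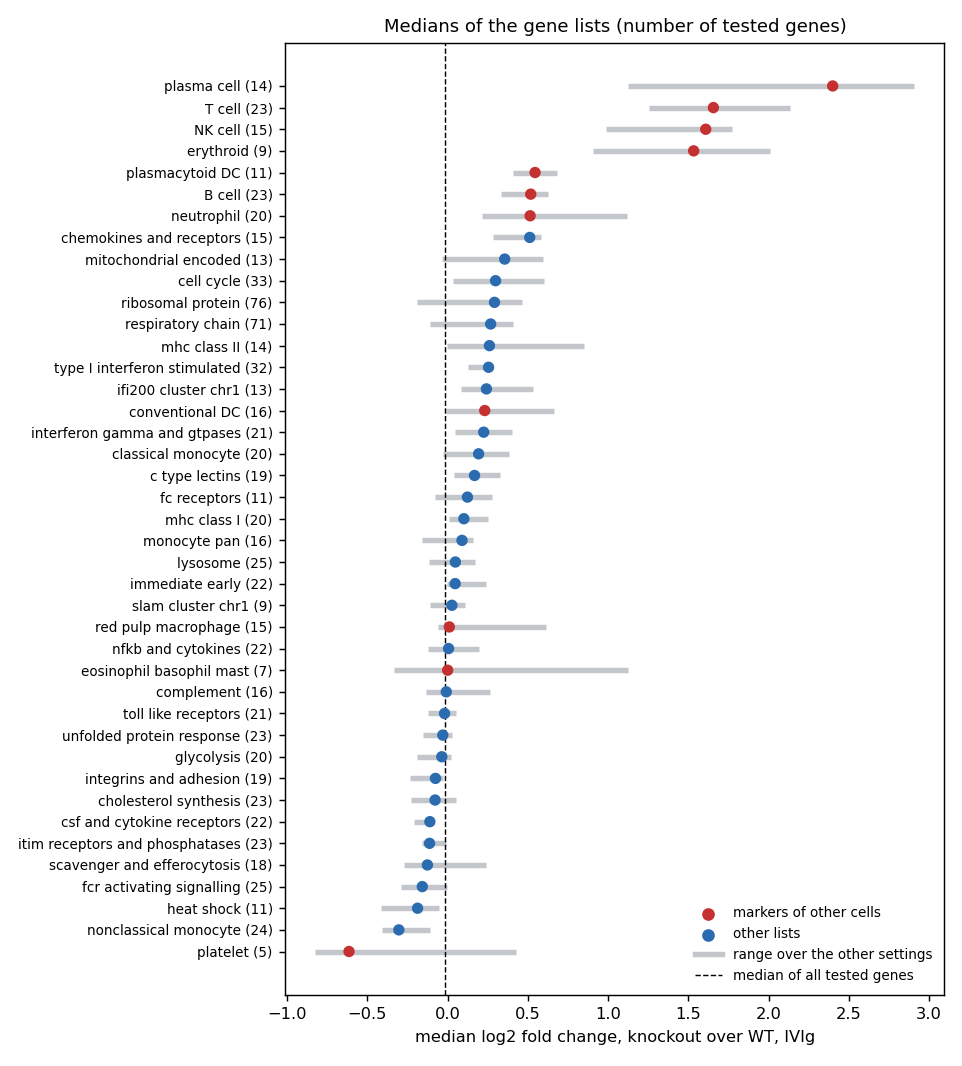
Median log2 fold change of FcgRIIb knockout over WT with IVIg for 41 gene lists (points), with the range over the alternative settings (grey) and the number of tested genes in parentheses. Plasma cell (2.40), T cell (1.66), natural killer (NK) cell (1.61) and erythroid (1.53) lists have the highest medians, and the non-classical monocyte list (-0.30) is below 0 in every setting.

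Monocyte markers were abundant in all 6 libraries, with Ccr2, the receptor for exit from bone marrow, at 853 to 2376 CPM. Of 24 markers of non-classical (patrolling, Ly6C-low) monocytes 19 were negative, with a median log2 fold change of -0.30, and 0 passed the test. In 4 of them, Itgal, Spn, Ace and Nr4a1, every knockout library was below every WT library, as in 4.55% of all genes tested. Itgal, the alpha chain of the integrin LFA-1, stood at 2482, 2152 and 1944 CPM in WT and at 1241, 1562 and 1562 CPM in knockout libraries (log2 fold change -0.59 ± 0.28, edgeR adjusted p = 0.904). Nr4a1, the nuclear receptor required for these monocytes, stood at 631, 704 and 722 CPM in WT and at 609, 413 and 401 CPM in knockout libraries. Cx3cr1, the fractalkine receptor, overlapped (log2 fold change -0.15 ± 0.21, SE). The summed level of the list was 10294 to 13527 CPM in WT and 8225 to 9853 CPM in the knockout, without overlap, and the median in PBS was 0.06. For the Dectin-1 knockout over WT, both with IVIg, the list median was -0.39, further below 0 than here.

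Of 20 markers of classical (Ly6C-high, inflammatory) monocytes 12 were positive, with a median log2 fold change of 0.19 that changed sign in 2 alternative settings. Ly6c2, the antigen that defines them, stood at 253, 343 and 527 CPM in WT and at 761, 551 and 440.0 CPM in knockout libraries, with overlap at WT replicate 3 (log2 fold change 0.64 ± 0.31, SE). Markers shared by all monocytes had a median of 0.09.

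Fcgr2b itself (ENSMUSG00000026656, chromosome 1, 170786186 to 170804116) was still counted in the knockout. It stood at 229, 318 and 226 CPM in WT and at 234, 130 and 156 CPM in knockout libraries, so knockout replicate 1 lay inside the WT range. The knockout mean was 67.2% of the WT mean, with a log2 fold change of -0.58 ± 0.24 (SE, edgeR adjusted p = 0.904) and an exact two-sided permutation p of 0.3, where 3 against 3 cannot go below 0.1. Counts cover all exons of the gene, and which of them the allele lacks is not given, so this level does not check the genotype labels. In PBS the log2 fold change was also -0.58.

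The activating Fc gamma receptors and their shared chain overlapped between the groups. On the list of 11 Fc receptor genes, 1 had knockout libraries above all WT libraries and 1 had them below, against 5.76% and 4.55% of all genes tested. The gene above was Fcrla, a B cell Fc receptor relative. It stood at 1.24, 1.31 and 0.444 CPM in WT and 4.44, 2.61 and 2.28 CPM in the knockout (log2 fold change 1.56, edgeR unadjusted p = 0.0406). The gene below was the cytosolic receptor Trim21 (log2 fold change -0.15). Fcgr1, the high-affinity activating receptor, stood at 105, 109 and 178 CPM in WT and at 172, 138 and 139 CPM in knockout libraries. Fcgr3, a low-affinity activating receptor, stood at 272, 361 and 412 CPM in WT and at 512, 298 and 367 CPM in the knockout. Fcgr4, an activating receptor of non-classical monocytes, stood at 78.6, 314 and 127 CPM in WT and at 190.1, 187 and 114 CPM in the knockout. The shared gamma chain Fcer1g stood at 429, 650 and 650 CPM in WT and at 1131, 589 and 607 CPM in the knockout, where replicate 1 alone was high. Per kilobase of exon the mean level was 659 CPM for Fcer1g in WT and 888 CPM in the knockout, 201 and 226 CPM for Fcgr3, 138 and 130 CPM for Fcgr4, 50.5 and 57.9 CPM for Fcgr1, and 44.5 and 29.9 CPM for Fcgr2b. The order of these genes was the same in both groups.

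Downstream of the activating receptors 21 of 25 signalling genes were negative, with a median log2 fold change of -0.16 and 0 called. In 3 of them the groups did not overlap, all lower, among them the kinase Fgr, which phosphorylates receptor tails, and the adaptor Sh3bp2. Over all genes tested 4.55% were placed lower in this way. Fgr stood at 782, 811 and 821 CPM in WT and at 757, 648 and 710.1 CPM in knockout libraries (log2 fold change -0.19 ± 0.19, SE). Of 23 inhibitory receptors and phosphatases 14 were negative, with a median of -0.11. Inpp5d, which encodes SHIP-1, overlapped, at 406, 245 and 265 CPM in WT and 170, 263 and 245 CPM in the knockout. Clec7a, which encodes Dectin-1, also overlapped, at 483, 766 and 739 CPM in WT and 861, 625 and 648 CPM in the knockout.

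**Figure D5:**
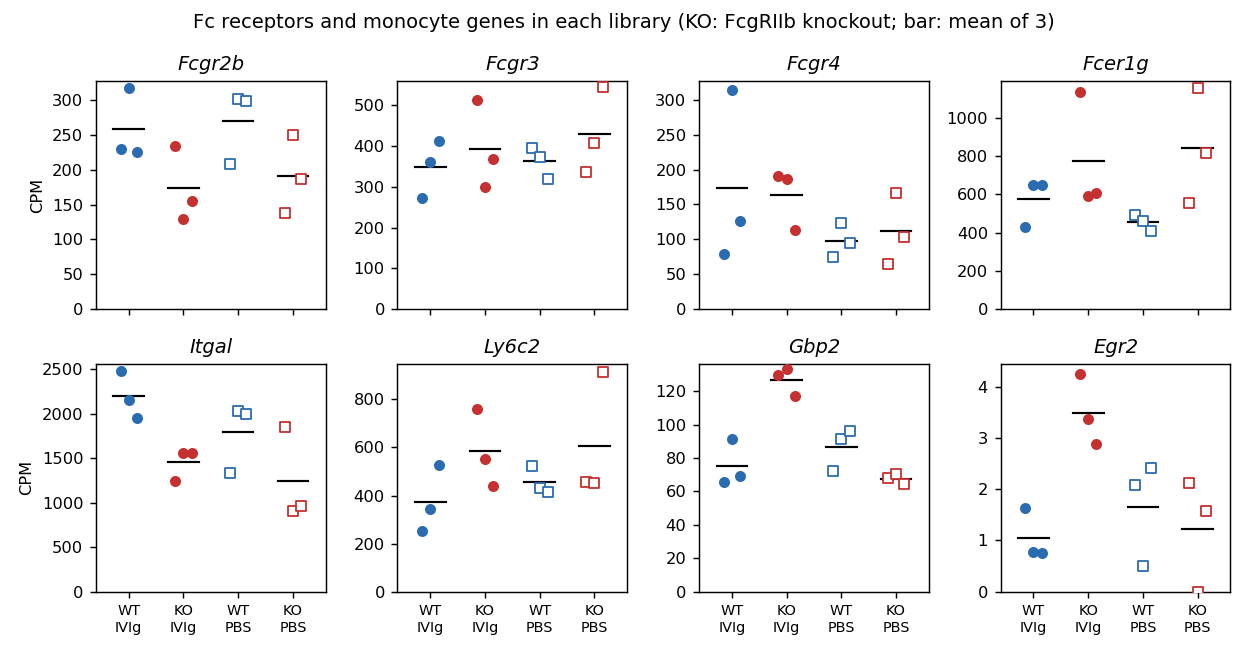
CPM of 8 Fc receptor and monocyte genes in each WT and FcgRIIb knockout library, by treatment, with 1 point a library and a bar at the mean of 3. With IVIg, Fcgr2b overlaps between the genotypes, and the Gbp2 and Itgal groups lie apart.

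Most interferon-inducible genes had fold changes above 0 with IVIg, and none passed the test. Gbp2, an interferon-induced GTPase of defence against intracellular microbes, stood at 65.8, 91.5 and 69.3 CPM in WT and at 130, 133 and 117 CPM in knockout libraries, without overlap (log2 fold change 0.75 ± 0.20, edgeR adjusted p = 0.652). In PBS it stood at 72.5, 91.6 and 96.2 CPM in WT and at 68.1, 70.6 and 64.2 CPM in knockout libraries. The direction was thus opposite in PBS, where all knockout libraries lay below all WT libraries, and the interaction of 1.13 ± 0.29 (SE) had an edgeR adjusted p of 1.0. Its relative Gbp3 stood at 68.4, 63.6 and 79.5 CPM in WT and at 117, 93.6 and 96.4 CPM in knockout libraries with IVIg, also without overlap. In the Dectin-1 knockout with IVIg, Gbp3 stood at 125, 117 and 120 CPM and Gbp2 at 125, 90.9 and 93.6 CPM. Their log2 fold changes there over WT were 0.77 and 0.45, and neither passed the test. Of the 21 interferon gamma and GTPase genes tested 15 were positive (median log2 fold change 0.22), and of 32 type I interferon genes 24 were positive (median 0.25, against -0.11 in PBS). For the Dectin-1 knockout over WT with IVIg these list medians were 0.12 and 0.18.

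The interferon-inducible Ifi200 genes lie on chromosome 1, as Fcgr2b does. Of the 13 tested 10 were positive and in 4, Ifi204, Ifi208, Ifi209 and Ifi214, the knockout libraries lay above the WT ones, with a list median of 0.24. Over all genes tested 5.76% were placed higher in this way. The list median for the Dectin-1 knockout over WT with IVIg was 0.20. Ifi204, a nuclear DNA sensor, stood at 267, 177 and 298 CPM in WT and at 432, 317 and 365 CPM in knockout libraries. Of 208 tested genes within 10 Mb of Fcgr2b 0 passed with edgeR, and 12 (5.77%) had an unadjusted p under 0.05 against 5.44% of all genes. Among those 208, Atp1b1, a subunit of the sodium pump, stood at 0.797, 1.39 and 0.510 CPM in WT and at 5.96, 6.77 and 1.94 CPM in knockout libraries (log2 fold change 2.38 ± 0.58, edgeR adjusted p = 0.544).

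Ccr1, a receptor for inflammatory chemokines, stood at 12.7, 7.11 and 15.3 CPM in WT and at 39.5, 22.5 and 29.9 CPM in knockout libraries (log2 fold change 1.38 ± 0.57, edgeR adjusted p = 0.904). Of 15 chemokine and receptor genes tested 12 were positive, with a median log2 fold change of 0.51. Clec4e, the lectin Mincle that senses microbial glycolipids and cell damage, stood at 42.3, 41.8 and 39.8 CPM in WT and at 67.5, 51.2 and 73.4 CPM in knockout libraries. Egr2, an early transcription factor of stimulated cells, stood at 1.64, 0.778 and 0.755 CPM in WT and at 4.24, 3.37 and 2.88 CPM in knockout libraries (log2 fold change 1.70 ± 0.50, edgeR adjusted p = 0.777). None of these passed the test. Egr2 was the 1 immediate early gene of 22 placed higher without overlap, against 2 placed lower, with a list median of 0.05 that changed sign in 1 setting. Of 22 NF-kappa B and cytokine genes tested 0 were placed higher without overlap and 1 lower, with a median of 0.01 that changed sign in 7 settings. Integrin and adhesion genes had 5 of 19 members without overlap in the lower direction, Itgal, Itgam, Itgb1, Itgb2 and Itgb3, and 1 in the higher. Over all genes tested these shares were 4.55% and 5.76%. Itgb3, the beta chain of the vitronectin receptor, stood at 59.6, 69.95 and 76.8 CPM in WT and at 35.9, 52.2 and 46.3 CPM in knockout libraries (log2 fold change -0.61 ± 0.27, SE).

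Among the lower genes chosen by the rule for named genes, Wdfy1, an adaptor of Toll-like receptor signalling on chromosome 1, had the smallest unadjusted p. It stood at 12.7, 42.2 and 5.97 CPM in WT and at 1.63, 4.01 and 5.32 CPM in knockout libraries (log2 fold change -2.40 ± 0.60, edgeR adjusted p = 0.553). WT replicate 3 was close to the knockout libraries in this gene too, and the log2 fold change in PBS was -2.87. In the Dectin-1 knockout with IVIg, Wdfy1 was low as well, at 6.25, 5.53 and 6.35 CPM (log2 fold change over WT -1.76). Efnb2, the membrane ligand ephrin-B2, stood at 3.09, 2.99 and 1.95 CPM in WT and at 1.18, 0.644 and 0.908 CPM in knockout libraries. The other lower genes, Klhl12, Dnajb2, Xylb, Hectd2, Msmp, Caskin2, Dnase1l2 and Mir7091, had log2 fold changes of -1.02 to -4.41, and none passed. Of the higher ones Ttc30a1, a component of transport within cilia, stood at 0.516, 0.389 and 0.976 CPM in WT and at 3.11, 2.31 and 2.62 CPM in knockout libraries (log2 fold change 2.07 ± 0.49, edgeR adjusted p = 0.482).

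Ribosomal and respiratory genes were mostly positive, and replicate 1 of each group stood apart from the other libraries. Of 76 ribosomal protein genes 75 were positive with a median log2 fold change of 0.29, yet in 0 did the groups fail to overlap. They summed to 35754, 69098 and 72457 CPM in WT and to 107616, 53417 and 52848 CPM in knockout libraries, so knockout replicate 1 was above and WT replicate 1 below the other 4. Of 71 respiratory chain genes 67 were positive with a median of 0.27. Without knockout replicate 1 the medians were -0.17 and -0.08, and without WT replicate 1 they were 0.021 and 0.046. Over the 5288 abundant genes the median log2 fold change was 0.13 in the shortest of 4 equal groups by length and -0.21 in the longest. With each library's trend on gene length corrected the list medians were 0.10 and 0.05. Of 13 genes encoded in mitochondria 5 were placed higher without overlap, against 5.76% of all genes tested. Their median was 0.36, which was -0.03 with the length correction. Of the remaining lists, cell cycle genes had 27 of 33 positive with a median of 0.30, class II antigen presentation genes 11 of 14 with a median of 0.26, and heat shock genes 2 of 11 with a median of -0.19.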

How the data were processed

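Monocyte RNA from 18 mouse spleens was sequenced after TruSeq stranded library preparation, as the labels' protocols give it. STAR and GRCm39 are named in the submitters' processing notes. The raw counts per gene were made by the authors with featureCounts 2.0.2 on Ensembl 104 genes and deposited, per the file headers. That command had no strand option and counted a read pair for each gene it overlaps, so overlapping genes and near-identical immunoglobulin segments are uncertain. Of the deposited columns, 18 belong to none of the labelled samples and were left out.

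Of 55416 genes 17040 passed filterByExpr over 6 groups. After TMM scaling, edgeR 4.0.16 in R 4.3.3 gave quasi-likelihood tests from a single model of all 18 libraries (12 residual degrees of freedom), and a gene passed at a Benjamini-Hochberg adjusted p under 0.05 over all genes tested. CPM uses TMM-scaled library sizes. Standard errors come from the fold change and its F value, and SD is over 3 libraries. Groups follow the labels for genotype and treatment. P-values measure the spread between libraries, which the design text gives as independent mice although some title codes are shared. A floor of 3 counts covers counting error only. The test was checked on simulated data.

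The comparison, the 42 gene lists and the rules were chosen with earlier results of these data known. Genes were named by a rule: up to 15 called genes a direction whose log2 fold change is 1 or more in size, at 1 CPM or more and without overlap, filled to 10 by the smallest p and leaving out antigen receptor segments. The rule adds up to 4 called or else 2 members of each list, and the Fc receptors with Clec7a. Other genes named, the antibody segments among them, were chosen after their values were seen. Alternatives were DESeq2 1.42.0, voom with quality weights (limma 3.58.1), the legacy fit, RLE factors, no filter, a filter of 1 CPM in 3 libraries, a fold threshold of 1.2, own groups only, removal of the shallow library, of each library in turn or of immunoglobulin, haemoglobin and mitochondrial genes, and a correction of each library's trend on gene length.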

Additional observations from a re-analysis of the deposited data

Results flagged for a closer look

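Gbp2, an interferon-induced GTPase, stood on opposite sides with IVIg and with PBS. Its log2 fold change of FcgRIIb knockout over WT was 0.75 with IVIg, where all 3 knockout libraries lay above all 3 WT libraries, and -0.38 with PBS, where all lay below. The test of the difference itself had an unadjusted p of 0.00108 and an edgeR adjusted p of 1.0 over all genes tested. Of the genes named by rule, Gbp2 was the only one whose libraries separated in opposite directions in this way.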

How the results depend on the processing

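No paired analysis was possible because the replicate numbers follow accession order and do not tie libraries across groups. Igkj2 passed in each of the 16 settings that kept it (edgeR, DESeq2 or limma adjusted p from 2.33e-12 to 0.0447). The count of genes passing with IVIg, 2 in the main test, was 1 with voom, the legacy fit, RLE factors, own groups only, without the shallow library and with the length correction, 3 with DESeq2 (Igkj2, Klf5 and Pcdh9) and without a filter, and 0 without immunoglobulin, haemoglobin and mitochondrial genes (864 at an unadjusted p under 0.05), where both genes are removed. Leaving out 1 library gave 1 to 6. Ighg2b was lost with an adjusted p of 1.0 with DESeq2 and the legacy fit, 0.488 with voom, 0.945 with own groups only, 0.0539 with RLE factors, 0.0566 without the shallow library and 0.0655 with the length correction, and without WT replicate 1 (0.182), WT replicate 3 (0.0943) or knockout replicate 2 (0.508).

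With PBS the count was 175 with DESeq2, 9 without a filter and 9 with own groups only, against 0 in the main test, and 0 to 40 with 1 library left out. For the interaction it was 1 with DESeq2 and 0 with each library left out. Against the Dectin-1 knockout it was 33 with DESeq2, 32 with voom, 9 with the legacy fit, 34 without a filter and 13 without immunoglobulin, haemoglobin and mitochondrial genes, and 9 to 21 with 1 library left out. The causes were not tested.

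Of 1649 pairs of a named gene and a setting, 13 changed sign, all in uncalled genes. Voom gave log2 fold changes of -0.034 for Fcgr1, 0.017 for Fcgr4, -0.14 for Fcgr3 and -0.11 for Clec7a, and the length correction -0.027 for Fcgr3 and -0.0032 for Clec7a. With 1 library left out the ranges were -0.43 to 0.67 for Fcgr4, -0.077 to 0.33 for Fcgr3, -0.084 to 0.22 for Clec7a, -0.068 to 1.12 for Cd5l and -0.0041 to 0.80 for Rps20. Of 42 list medians 21 changed sign in some setting. Medians without a change of sign were 1.12 to 2.91 for plasma cell, 1.25 to 2.14 for T cell, 0.99 to 1.77 for natural killer cell and -0.41 to -0.11 for non-classical monocyte markers. In knockout IVIg replicate 1, the shallowest library of this comparison at 22895716 counts, levels under 0.148 CPM fell below the floor of 3 counts. In WT IVIg replicate 2, the deepest at 48958909 counts, that floor was 0.0615 CPM. Levels near these floors are uncertain, which touches Cd3e, Gzmb and the rarer antibody segments.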
